A study of Mus musculus with 12 samples.

Results

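Glycolysis and the response to low oxygen were followed through 35 genes in myeloid cells sorted from mouse paws during acute inflammation. The genes were chosen by name for their roles in these pathways, with earlier results of these data known. All 35 were found among the 55401 gene IDs measured. They comprise 2 glucose transporters, 3 hexokinases, 8 enzymes of upper glycolysis, 5 of lower glycolysis, 3 genes of lactate formation and transport, HIF-1alpha with a pair of its prolyl hydroxylases, and 11 genes known to be induced by hypoxia.

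The cells carried CD45 and CD11b, lacked Ly6G, and came from hind paws 4 h after injection of saline or of 1% carrageenan, a seaweed polysaccharide that provokes acute inflammation and pain. The adult mice were FABP5Flox (Flox, the floxed Fabp5 allele without Cre) or FABP5Flox/LysM-Cre (cKO, the same allele with Cre expressed from the lysozyme M gene Lyz2, which is active in monocytes, macrophages and neutrophils). The 4 groups (Flox saline, Flox carrageenan, cKO saline, cKO carrageenan) had 3 libraries each, and every library was a pool of 3 or 4 mice. By the number ranges of the labels a Flox group drew on 10 mice and a cKO group on 12. The floxed allele was shared by all groups. No group carried LysM-Cre without the floxed allele, so the Cre, its Lyz2 allele and the loss of Fabp5 cannot be told apart. Strain and sex were not given in the sources used here, and whether saline and carrageenan pools of the same number share mice is not stated. The p-values measure the spread between these pools.

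Glycolysis splits glucose into pyruvate and yields ATP without oxygen. Glucose enters through GLUT transporters, is trapped by hexokinases, is committed at phosphofructokinase, and leaves as lactate through monocarboxylate transporters when pyruvate is not burned in mitochondria. HIF-1alpha is made continuously, and in oxygen the prolyl hydroxylases mark it for VHL-dependent breakdown. When oxygen falls, HIF-1alpha is stabilised, pairs with ARNT and binds short sites near genes for glucose uptake, glycolytic enzymes, angiogenic factors and mitophagy. In macrophages and monocytes, bacterial products and NF-kB signalling also raise Hif1a transcription, and a shift toward glycolysis accompanies their inflammatory activation.

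The core of the HIF binding site is ACGTG or GCGTG, and the 250 bases upstream of the RefSeq start (GRCm38.p6) were searched for these letters on both strands. Of the 35 members, 32 had such a window, 26 of which (81.2%) held at least 1 match, against 38.6% of 32851 windows of the same length. Each member gave the window nearest its annotated start, while the 32851 count every window of every gene. Base composition, including the CG that both cores contain, was not matched, and its part in these shares was not tested. The palindrome CACGTG, the E-box bound by many other factors, is read on both strands and counts as a match on each. Among the members with a window, 12 of the 14 that rose after carrageenan in both genotypes together (85.7%) and 13 of the 17 that were tested and did not pass (76.5%) held a match, as did Pfkm, which was not tested. For ACGTG alone the shares were 64.3%, 47.1% and, over all windows, 16.6%. The 5 windows printed here show members with different outcomes, with matches to either strand in capitals. Hk2 (hexokinase 2; chr6:82774455-82774704, minus strand), Egln3 (prolyl hydroxylase 3; chr12:54203875-54204124, minus strand) and Slc16a1 (a lactate transporter; chr3:104638414-104638663, plus strand) rose and held matches. Vegfa (an angiogenic factor; chr17:46032378-46032627, minus strand, 1 of its 2 windows) rose and held none there. Pgk1 (phosphoglycerate kinase; chrX:106186850-106187099, plus strand) held matches and did not pass the test.
Hk2: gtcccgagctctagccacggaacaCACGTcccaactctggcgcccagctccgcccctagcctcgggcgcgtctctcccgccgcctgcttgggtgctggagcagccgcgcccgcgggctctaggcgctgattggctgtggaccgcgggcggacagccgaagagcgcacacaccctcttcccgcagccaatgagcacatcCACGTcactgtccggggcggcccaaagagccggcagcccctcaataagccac
Egln3: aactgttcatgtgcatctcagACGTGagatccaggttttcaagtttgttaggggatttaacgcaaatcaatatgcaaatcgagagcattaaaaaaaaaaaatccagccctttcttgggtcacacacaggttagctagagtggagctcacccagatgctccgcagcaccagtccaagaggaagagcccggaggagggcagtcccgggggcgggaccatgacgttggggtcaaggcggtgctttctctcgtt
Slc16a1: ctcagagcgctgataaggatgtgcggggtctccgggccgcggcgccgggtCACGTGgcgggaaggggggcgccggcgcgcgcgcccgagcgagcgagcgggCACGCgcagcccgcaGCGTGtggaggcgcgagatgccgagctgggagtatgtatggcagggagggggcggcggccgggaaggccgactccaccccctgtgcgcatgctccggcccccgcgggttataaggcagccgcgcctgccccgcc
Vegfa: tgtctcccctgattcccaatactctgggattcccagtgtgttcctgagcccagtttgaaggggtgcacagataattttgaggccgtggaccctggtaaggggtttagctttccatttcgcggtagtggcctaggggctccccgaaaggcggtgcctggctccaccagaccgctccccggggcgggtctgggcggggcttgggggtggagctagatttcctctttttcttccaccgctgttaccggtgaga
Pgk1: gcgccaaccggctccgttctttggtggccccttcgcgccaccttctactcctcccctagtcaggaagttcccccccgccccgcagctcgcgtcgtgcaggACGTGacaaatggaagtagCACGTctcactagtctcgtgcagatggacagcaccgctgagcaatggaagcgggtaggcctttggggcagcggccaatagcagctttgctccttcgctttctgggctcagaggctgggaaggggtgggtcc
A match is a run of letters and was not measured as a bound site.

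Libraries differed in depth along with genotype. The Flox libraries held 111925 to 994161 reads assigned to genes and the cKO libraries 508407 to 2987015. Levels below are normalized counts on 1 scale across all 12 libraries, on which 1 read was worth 0.253 in the deepest library and 5.51 in the shallowest, Flox saline replicate 1. Fabp5, the targeted gene, averaged 20.99 ± 14.8 in Flox saline, 58.7 ± 34.4 in Flox carrageenan, 7.10 ± 3.67 in cKO saline and 13.5 ± 8.63 in cKO carrageenan (SD, n = 3). The Fabp5 ranges of Flox and cKO overlapped after saline and did not overlap after carrageenan. By limma, the log2 difference of cKO from Flox for Fabp5 was -1.20 after saline (adjusted p = 0.683) and -2.06 after carrageenan (adjusted p = 0.497). Lyz2, which carries the Cre, differed by -0.57 (adjusted p = 0.683) and -1.14 (adjusted p = 0.497).

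Carrageenan raised a large share of the glycolysis and hypoxia genes. Averaged over both genotypes, 15 of the 34 members tested rose (44.1%), against 6.8% of the 10240 genes tested. None of the members fell, against 4.86% of all genes. The list was drawn up with earlier results of these data known, so these shares are a description. The test was limma on log2 of the value plus 1, passed at an adjusted p (Benjamini-Hochberg over all genes) under 0.05. The median log2 difference was 0.86 over the members and 0.02 over all genes tested, and 31 of 34 members had a positive difference (51.2% of all genes did). Over all genes, 696 rose and 498 fell on the common scale, and 598 and 614 on the deposited scale. On the deposited scale 14 of the 15 members were still called. The rises were in glucose uptake (1 of 2), hexokinases (1 of 3), upper glycolysis (3 of 7 tested), lower glycolysis (1 of 5), lactate genes (2 of 3), HIF-1alpha and its hydroxylases (2 of 3) and hypoxia-inducible targets (5 of 11). Of the 15, 11 kept their call whichever library was left out. Pfkl, Slc16a1, Slc16a3 and Ndrg1 each lost it in 6, 7, 2 and 3 of the 12 omissions. Pfkm, the muscle phosphofructokinase, was too low to be tested, with 0 to 6.47 normalized counts in 11 libraries and 9 reads (49.6) in Flox saline replicate 1.

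**Figure D1:**
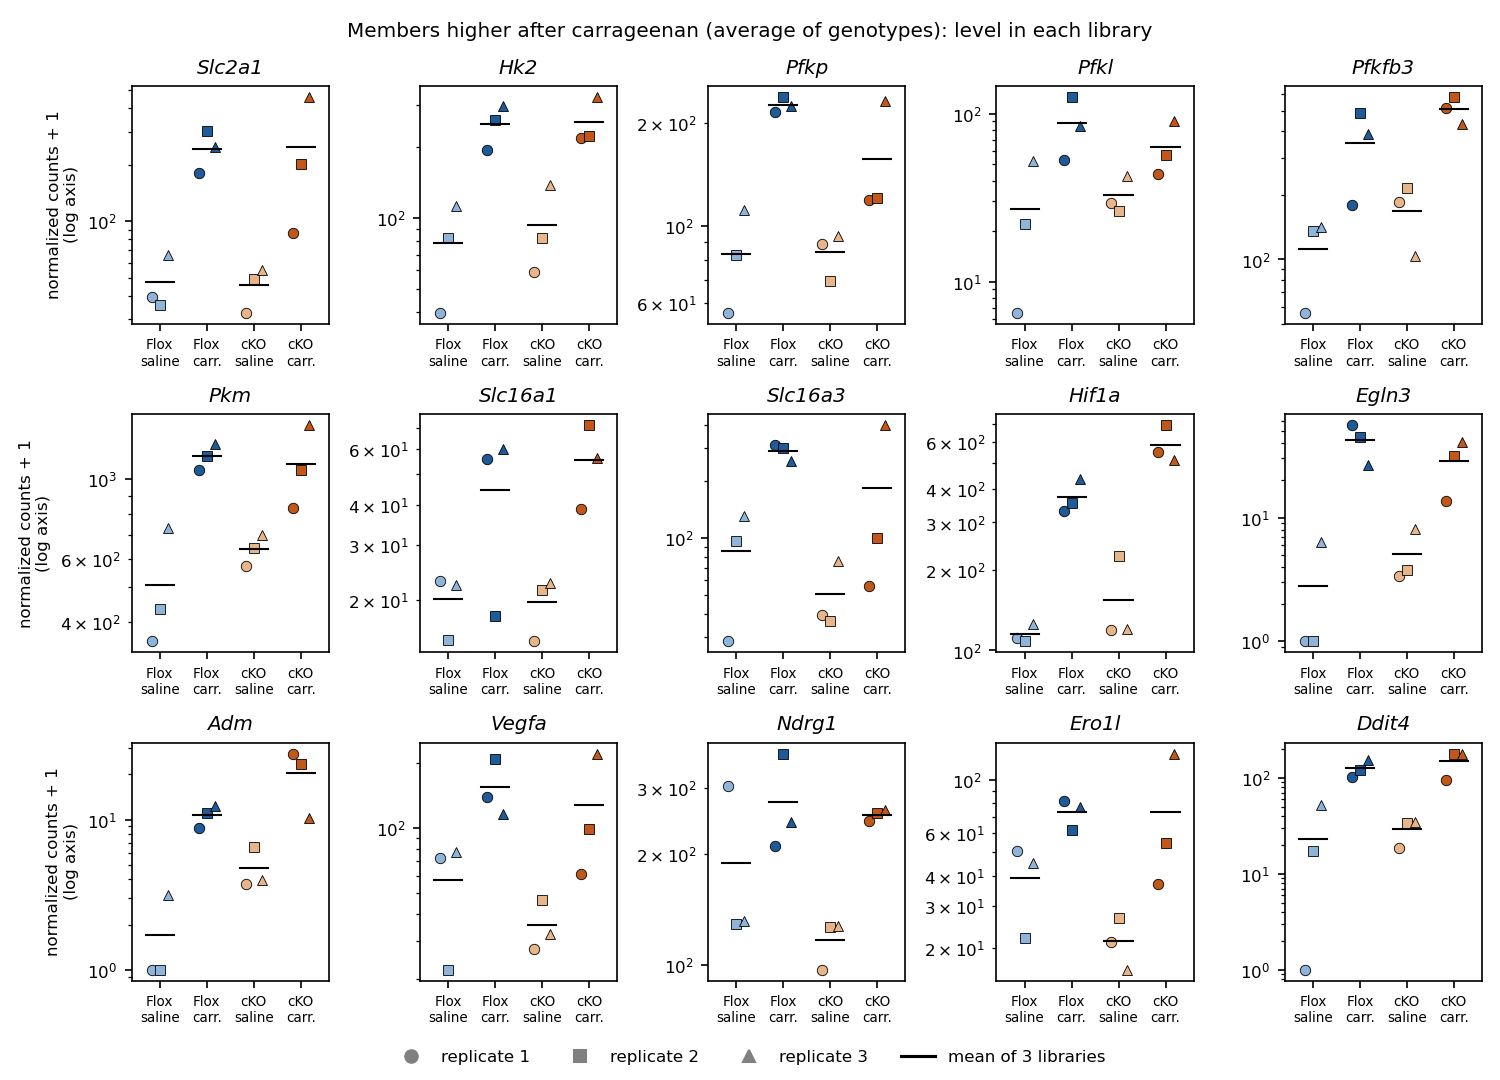
Level of the 15 members that rose after carrageenan averaged over genotypes. The vertical log axis of each panel is normalized counts plus 1, each point is 1 library (shape gives the replicate) and the line is the mean of 3. Hif1a stands between 107 and 224 in all 6 saline libraries and between 331 and 690.3 in all 6 carrageenan libraries.

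The glucose transporter Slc2a1 (GLUT1; ENSMUSG00000028645, chr4:119108711-119137983) was at 38.6, 35 and 65.4 normalized counts in Flox saline and at 179.7, 301 and 246 in Flox carrageenan. The cKO values were 31.4, 48.1 and 54.1 after saline and 85.3, 202 and 459 after carrageenan. Every carrageenan library lay above every saline library in both genotypes, and the spread among the cKO carrageenan libraries was wide. The rise averaged 4.85-fold (log2 difference 2.28 ± 0.34 SE, adjusted p = 0.000464). It passed within Flox (log2 difference 2.39, adjusted p = 0.00824) and within cKO (2.17, adjusted p = 0.0253). The cKO call was lost in 5 of 12 omissions, those of each cKO saline library and of cKO carrageenan replicates 2 and 3. Slc2a3 (GLUT3), the high-affinity transporter of neurons and leukocytes, ranged from 6.76 to 29.9 over the 12 libraries and did not pass (log2 difference -0.22).

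Hk2 is the inducible hexokinase that docks on mitochondria. It was at 38.6, 81.6 and 111 normalized counts in Flox saline and at 193, 260.2 and 297 in Flox carrageenan. For cKO the levels were 57.8, 81.0 and 138 after saline and 217, 222 and 325 after carrageenan. The groups did not overlap in either genotype, and the average rise was 3.15-fold (log2 difference 1.66 ± 0.27 SE, adjusted p = 0.00109). Within Flox it passed (log2 difference 1.79, adjusted p = 0.0127; 0.0563 without carrageenan replicate 2), and within cKO it fell just short (1.52, adjusted p = 0.0508; 0.0146 with the replicate number as a block). Hk1, the hexokinase found in most tissues, showed a log2 difference of 0.20. Hk3, an isoform expressed in leukocytes, showed 0.84 (adjusted p = 0.055), and neither passed. With the replicate number as a block Hk3 passed (adjusted p = 0.0415), as it did with edgeR (adjusted p = 0.0297) and DESeq2 (adjusted p = 0.0161).

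In upper glycolysis the members that rose were Pfkp, Pfkl and Pfkfb3, which act at the committed step. Pfkp, the platelet-type phosphofructokinase, was at 55.1, 81.6 and 110.4 in Flox saline and at 213, 237 and 223 in Flox carrageenan. The cKO libraries stood at 88.2, 68.6 and 92.9 after saline and at 118, 119.9 and 230.1 after carrageenan. Neither genotype overlapped, although the cKO carrageenan replicates 1 and 2 stood far below replicate 3. Pfkp rose 2.24-fold on average (log2 difference 1.16 ± 0.22 SE, adjusted p = 0.00288) and within Flox (1.49, adjusted p = 0.0107), and its difference within cKO was 0.84 (adjusted p = 0.252). Pfkp overlaps Pitrm1 on the other strand (415 reads), and whether the counting used strand is not stated.

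Pfkl, the liver-type phosphofructokinase, was at 5.51, 21.0 and 51.4 in Flox saline and at 52.1, 125 and 83.8 in Flox carrageenan. The cKO pools gave 28.4, 25.3 and 41.7 after saline and 42.5, 55.7 and 89.0 after carrageenan. The lowest value is 1 read of Flox saline replicate 1, and the groups did not overlap, with a narrow gap in both genotypes. Pfkl rose on average (log2 difference 1.5 ± 0.42 SE, adjusted p = 0.0325; 0.0616 to 0.0922 in the 6 omissions that lost it) and, by the main limma test, in neither genotype alone. Within Flox it was called by DESeq2, and by limma without Flox saline replicate 3 (adjusted p = 0.00678).

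Pfkfb3 makes fructose 2,6-bisphosphate, the strongest activator of phosphofructokinase. It was at 55.1, 135 and 141 in Flox saline and at 179.7, 487 and 387 in Flox carrageenan. In cKO it was at 184, 216 and 102 after saline and at 515, 579 and 433 after carrageenan. The groups were apart in both genotypes. The rise averaged 3.15-fold (log2 difference 1.66 ± 0.29 SE, adjusted p = 0.00186) and passed within Flox (1.66, adjusted p = 0.0265) and within cKO (1.66, adjusted p = 0.0484). These 2 calls were lost in 3 and 9 of 12 omissions. The other kinase of this step, Pfkfb4, showed a difference of 0.08 and Gpi1, the glucose phosphate isomerase, of 0.01. Aldoa, the aldolase, differed by 0.27 and Tpi1, the triose phosphate isomerase, by 0.85 (adjusted p = 0.185). Tpi1 overlaps Spsb2 (328 reads). None of these 4 passed.

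In lower glycolysis only Pkm, pyruvate kinase, passed. It was at 353, 433 and 732 in Flox saline and at 1057, 1162 and 1256 in Flox carrageenan. The cKO values were 573, 642 and 697 after saline and 831, 1061 and 1413 after carrageenan. Both genotypes were separated, and the average rise was 2.01-fold (log2 difference 1.01 ± 0.20 SE, adjusted p = 0.00405). It passed within Flox (1.26, adjusted p = 0.0153; 0.0513 to 0.0599 in 3 omissions that lost it) and not within cKO (0.76, adjusted p = 0.255). Counts per gene do not separate the splice forms of Pkm. Gapdh (0.54), Pgk1 (0.88), Pgam1 (0.51) and Eno1 (0.67), enzymes of the steps between, had positive log2 differences with adjusted p of 0.0980 to 0.541. Pgk1 passed with the replicate block (adjusted p = 0.0353), with edgeR (adjusted p = 0.0292) and with DESeq2 (adjusted p = 0.0246). Gapdh overlaps Iffo1 (248 reads).

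Both lactate transporters rose, and Ldha, which makes lactate from pyruvate, did not pass (log2 difference 0.49, adjusted p = 0.193). Slc16a3 (MCT4), the exporter of strongly glycolytic cells, was at 27.6, 95.5 and 131 in Flox saline and at 309.8, 301 and 255 in Flox carrageenan. For cKO the levels were 38.5, 35.4 and 74.7 after saline and 54.7, 99 and 396 after carrageenan. The Flox groups were far apart, and the cKO groups overlapped. The average rise was 3.32-fold (log2 difference 1.73 ± 0.44 SE, adjusted p = 0.0189; 0.0524 and 0.0547 without cKO saline replicate 1 or 2), with 2.02 in Flox (adjusted p = 0.0671) and 1.45 in cKO (adjusted p = 0.385). Slc16a1 (MCT1) was at 22.1, 14.0 and 21.4 in Flox saline and at 54.7, 16.9 and 58.9 in Flox carrageenan. The cKO libraries stood at 13.9, 20.5 and 21.7 after saline and at 37.7, 70.4 and 55.2 after carrageenan, so that Flox overlapped and cKO did not. Slc16a1 rose 2.34-fold on average (log2 difference 1.23 ± 0.34 SE, adjusted p = 0.0291; 0.0531 to 0.0944 in 7 omissions that lost it) and, by the main limma test, in neither genotype alone. EdgeR and DESeq2 called both transporters higher within cKO.

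Hif1a (ENSMUSG00000021109, chr12:73901375-73947530) encodes the oxygen-regulated subunit of HIF-1, and its mRNA rose in both genotypes. It was at 110.3, 107 and 124 in Flox saline (114 ± 9.13, SD, n = 3) and at 331, 355 and 436 in Flox carrageenan (374 ± 55.0). The cKO pools gave 118, 224 and 119 (154 ± 60.6) after saline and 550.1, 690.3 and 514 (585 ± 93.2) after carrageenan. All 6 carrageenan libraries lay above all 6 saline libraries. The log2 difference averaged 1.84 ± 0.19 SE (3.58-fold, adjusted p = 3.17e-05), and was 1.70 in Flox (adjusted p = 0.0022) and 1.98 in cKO (adjusted p = 0.00129). These 3 calls held in all 12 omissions. The data are mRNA and say nothing of HIF-1alpha protein, which is regulated mainly by its breakdown.

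Egln3 (PHD3), a prolyl hydroxylase that is itself induced by HIF, was at 0, 0 and 5.36 in Flox saline and at 54.7, 43.9 and 25.7 in Flox carrageenan. In cKO it was at 2.37, 2.78 and 7.05 after saline and at 12.6, 30.6 and 39.9 after carrageenan. Neither genotype overlapped. The Flox saline group held 5 reads and the Flox carrageenan group 68, a ratio of normalized reads of 10.5 (95% interval 4.28 to 33.3, counting error only). The fitted average log2 difference was 3.46 ± 0.56 SE (adjusted p = 0.0009), and its size depends on the value of 1 added before the log. It passed within Flox (4.45, adjusted p = 0.00423) and not within cKO by limma (2.47, adjusted p = 0.146, and 0.0463 without Flox saline replicate 1). Egln1 (PHD2), the main oxygen sensor of resting cells, ranged from 11.0 to 44.3 and did not pass (log2 difference 0.38).

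Of the hypoxia-inducible targets, 5 of 11 rose. Ddit4 (REDD1), an inhibitor of mTORC1, was at 0, 16.3 and 50.4 in Flox saline and at 102, 118 and 151 in Flox carrageenan. The cKO values were 17.6, 32.7 and 33.5 after saline and 93.1, 177 and 175 after carrageenan. The groups were apart in both genotypes, with an average log2 difference of 3.02 ± 0.68 SE (adjusted p = 0.00861). Within Flox it was 3.68 (adjusted p = 0.0314; 0.0793 to 0.102 without any 1 of the Flox carrageenan libraries) and within cKO 2.36 (adjusted p = 0.316). The average and Flox sizes rest on the 0 reads of Flox saline replicate 1. That library's values do not enter the cKO difference of 2.36, which passed by limma without it (adjusted p = 0.00222). Within cKO edgeR and DESeq2 also called Ddit4 higher. Without Flox saline replicate 1 the log2 difference was 2.20 on average and 2.04 in Flox, and with all libraries edgeR gave 2.09 and DESeq2 2.20 in Flox. The Flox groups held 54 and 274 reads, a ratio of normalized reads of 3.91 (95% interval 2.91 to 5.33, counting error only).

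Vegfa was at 71.7, 21.0 and 76.1 in Flox saline and at 138, 206 and 115 in Flox carrageenan. For cKO the levels were 26.4, 45.3 and 31.2 after saline and 60.1, 98.1 and 219 after carrageenan. The groups were apart in both genotypes and the average rise was 3.10-fold (log2 difference 1.63 ± 0.36 SE, adjusted p = 0.00791). Adm, the vasodilator peptide adrenomedullin, was at 0, 0 and 2.14 in Flox saline and at 7.81, 10.1 and 11.3 in Flox carrageenan. The cKO libraries stood at 2.70, 5.57 and 2.94 after saline and at 26.5, 22.4 and 9.21 after carrageenan. The groups did not overlap. Adm rose on average (log2 difference 2.45 ± 0.49 SE, adjusted p = 0.00423) and within Flox (2.86, adjusted p = 0.0221). That rise rests on 2 and 21 reads in the Flox groups, a ratio of 8.09 (95% interval 1.98 to 71.1, counting error only), and was lost in 3 omissions.

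Ero1l (ERO1-alpha, which oxidises protein disulfide isomerase) was at 49.6, 21.0 and 43.9 in Flox saline and at 80.7, 60.8 and 76.3 in Flox carrageenan. The cKO pools gave 20.3, 25.6 and 15.3 after saline and 36.0, 53.9 and 127 after carrageenan. Its groups were apart, and the average rise was 2.46-fold (log2 difference 1.30 ± 0.32 SE, adjusted p = 0.0157). Ndrg1, a stress-responsive gene of differentiating cells, was at 303, 128 and 131 in Flox saline and at 208, 372 and 242 in Flox carrageenan. In cKO it was at 96.0, 126 and 126 after saline and at 244, 256 and 261 after carrageenan. The Flox groups overlapped through saline replicate 1 and the cKO groups did not. Ndrg1 rose 1.84-fold on average (log2 difference 0.88 ± 0.23 SE, adjusted p = 0.0206; 0.0528 to 0.0647 in 3 omissions that lost it). Vegfa, Ero1l and Ndrg1 passed in neither genotype alone by the main limma test, whereas edgeR and DESeq2 called each of them higher within cKO. Without Flox saline replicate 1, limma called Ndrg1 in both genotypes (adjusted p = 0.0271 in Flox and 0.00951 in cKO). That omission also gave calls for Vegfa within Flox and Ero1l within cKO.

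The other 6 hypoxia-inducible targets did not pass. The mitophagy receptors Bnip3 and Bnip3l had log2 differences of 1.78 ± 0.65 SE (adjusted p = 0.101) and -0.56, and Bnip3 had 0 reads in Flox saline replicate 1. Without that library the Bnip3 difference was 0.98 and passed, as it did without Flox saline replicate 3 (2.22; adjusted p of 0.0160 to 0.0290 in these omissions), with edgeR (1.10, adjusted p = 0.016), with DESeq2 (1.14, adjusted p = 0.00353) and with a pseudocount of 5. P4ha1 (0.38), a collagen prolyl hydroxylase subunit, Higd1a (0.46), a mitochondrial inner membrane protein, and Pdk1 (-0.08), the kinase that shuts pyruvate out of the citrate cycle, lay closer to 0. Ankrd37 (0.48) shares its locus with Ufsp2 on the other strand (504 reads against 118 of its own), and its highest value, 55.1, was in Flox saline replicate 1.

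**Figure D2:**
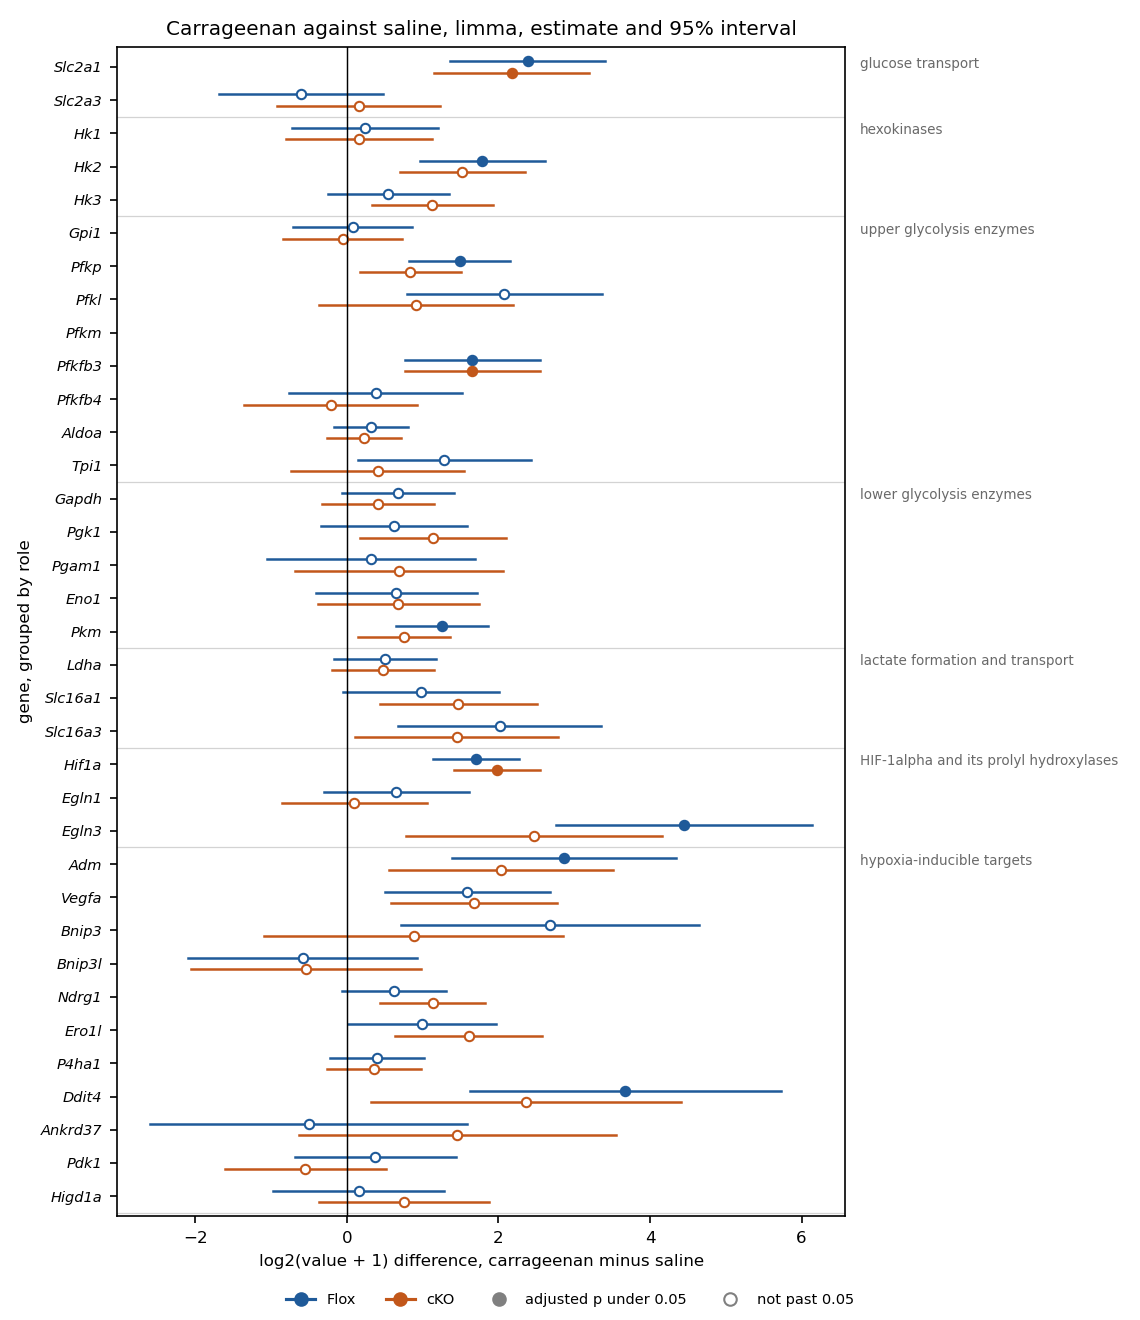
Difference of carrageenan from saline for each member in Flox (blue) and cKO (orange), on the log2 scale of value plus 1, with 95% intervals from limma. Filled points passed an adjusted p of 0.05, which 9 members did in Flox and 3 in cKO, and Pfkm was not tested.

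Within Flox, 9 of 34 members rose (26.5%, against 4.42% of all genes), and within cKO 3 of 34 (8.82%, against 2.1%). The 3 of cKO were Slc2a1, Pfkfb3 and Hif1a, and all are among the 9 of Flox. The median log2 difference of the members was 0.66 in Flox (0.10 over all genes) and 0.86 in cKO (-0.07). In Flox 16 members had every carrageenan library above every saline library and 0 the reverse (13% and 9.97% of all genes). In cKO 17 did, and Bnip3l and Pdk1 showed the reverse (12.6% and 17.0%). On the deposited scale the split of all called genes moved from 453 higher and 281 lower to 376 and 342 in Flox and from 215 and 56 to 163 and 72 in cKO. With edgeR on the recovered reads, 13 of 34 members rose in cKO (38.2%, against 4.58% of all genes) and 8 in Flox (against 3.56%). The 13 were Slc2a1, Pfkfb3, Hif1a, Hk2, Hk3, Slc16a1, Slc16a3, Egln3, Adm, Vegfa, Ero1l, Ndrg1 and Ddit4. DESeq2 called 13 in cKO (against 5.51%) and 10 in Flox (against 4.93%). The limma count in cKO was 8 without Flox saline replicate 1 (3.71% of all genes). That library does not enter the cKO means, but it enters the shared spread and the choice of genes tested. The count was 1 without cKO saline replicate 1 or 2 (0.722% and 1.2% of all genes) or cKO carrageenan replicate 2 or 3 (0.805% and 0.877%). In Flox the count was 4 without carrageenan replicate 2 (2.14% of all genes) and 5 without carrageenan replicate 3 (2.87%). The counts over all genes thus moved in the same direction as those of the members.

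No member's carrageenan response was called different between genotypes. The test of the difference itself called 0 of 34 members, against 0% of 10243 genes (244 at an unadjusted p under 0.05, none of them a member), and edgeR and DESeq2 called 0 too. The lowest adjusted p among the members was 0.967. The estimates ran from -2.01 for Egln3 (95% interval -4.42 to 0.41) to 1.94 for Ankrd37 (-0.996 to 4.88). For Hif1a the difference was 0.26 (-0.56 to 1.07) and for Slc2a1 -0.24 (-1.69 to 1.22). The interval for Slc2a1 spans differences past 2-fold either way.

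Markers of cell types changed with carrageenan beside these genes. Averaged over genotypes, 7 of 9 genes listed as markers of inflammatory monocytes rose (among them Ly6c2, Plac8 and Ms4a4c). Their summed level was 1007 to 1825 in Flox saline and 5841 to 7795 in Flox carrageenan, and in cKO 816 to 1468 and 2505 to 8570. Thbs1 alone made up a large part of the carrageenan sums, with means of 400 and 3540 in Flox and 389 and 3392 in cKO. The sums include the markers that did not pass. All 12 markers of resident macrophages fell (among them Cd163, Lyve1 and Folr2). Their sum was 10399 to 15548 in Flox saline and 3521 to 4630 in Flox carrageenan, and in cKO 14824 to 21011 and 4702 to 10261. Of 12 neutrophil markers 7 were tested and 5 rose (Csf3r, S100a9, Lcn2, Mmp8 and S100a8), with sums of 35 to 76.1 against 395 to 726 in Flox and 19.7 to 37.0 against 142 to 700 in cKO. Camp and Ngp were at 0 reads in all libraries, and Ly6g, against which the cells were sorted, had 4 reads over all 12. Of 6 fibroblast markers 3 rose (38.6 to 558 against 693 to 1200 in Flox, 254 to 640 against 678 to 1017 in cKO), and of 4 endothelial markers tested 3 rose (0 to 18.2 against 71.0 to 105, 21.5 to 35.2 against 35 to 69.0). The 8 general myeloid markers summed to 4868 to 8820 over the 12 libraries, and among them Ptprc rose and Adgre1 and Csf1r fell. A large part of that sum was Lyz2, which carries the Cre, with means of 4347 in Flox saline and 5443 in Flox carrageenan. In cKO the Lyz2 means were 2789 and 2524. Markers of keratinocytes, muscle, erythroid cells, T and NK cells and mast cells gave no call, with Myh4 and Cd3d at 0 reads. Fewer cells of a type and less RNA per cell cannot be told apart in these bulk libraries. The part of these changes in the rises of the glycolysis and hypoxia genes was not tested.

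Single libraries stood apart for the members. The cKO carrageenan replicate 3 was the highest of its group for 26 of 35 members (40.5% of all tested genes) and replicate 1 the lowest for 27 (30.9%). Replicate 3 also had the fewest reads of its group, the highest monocyte marker sum (8570), the highest neutrophil sum (700) and the lowest resident macrophage sum (4702). The part of these values in the members' levels was not tested. Eno1 shows the pattern, at 46.5, 77.2 and 291 in the cKO carrageenan replicates. Flox saline replicate 1, the shallowest library, was the lowest of its group for 20 of 35 members, a share near that of all tested genes (50.8%). It had 0 reads of Egln3, Adm, Bnip3 and Ddit4. Flox saline replicate 3 was the highest of its group for 20 members and cKO saline replicate 3 for 19 (33.2% and 33.9% of all tested genes).

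**Figure D3:**
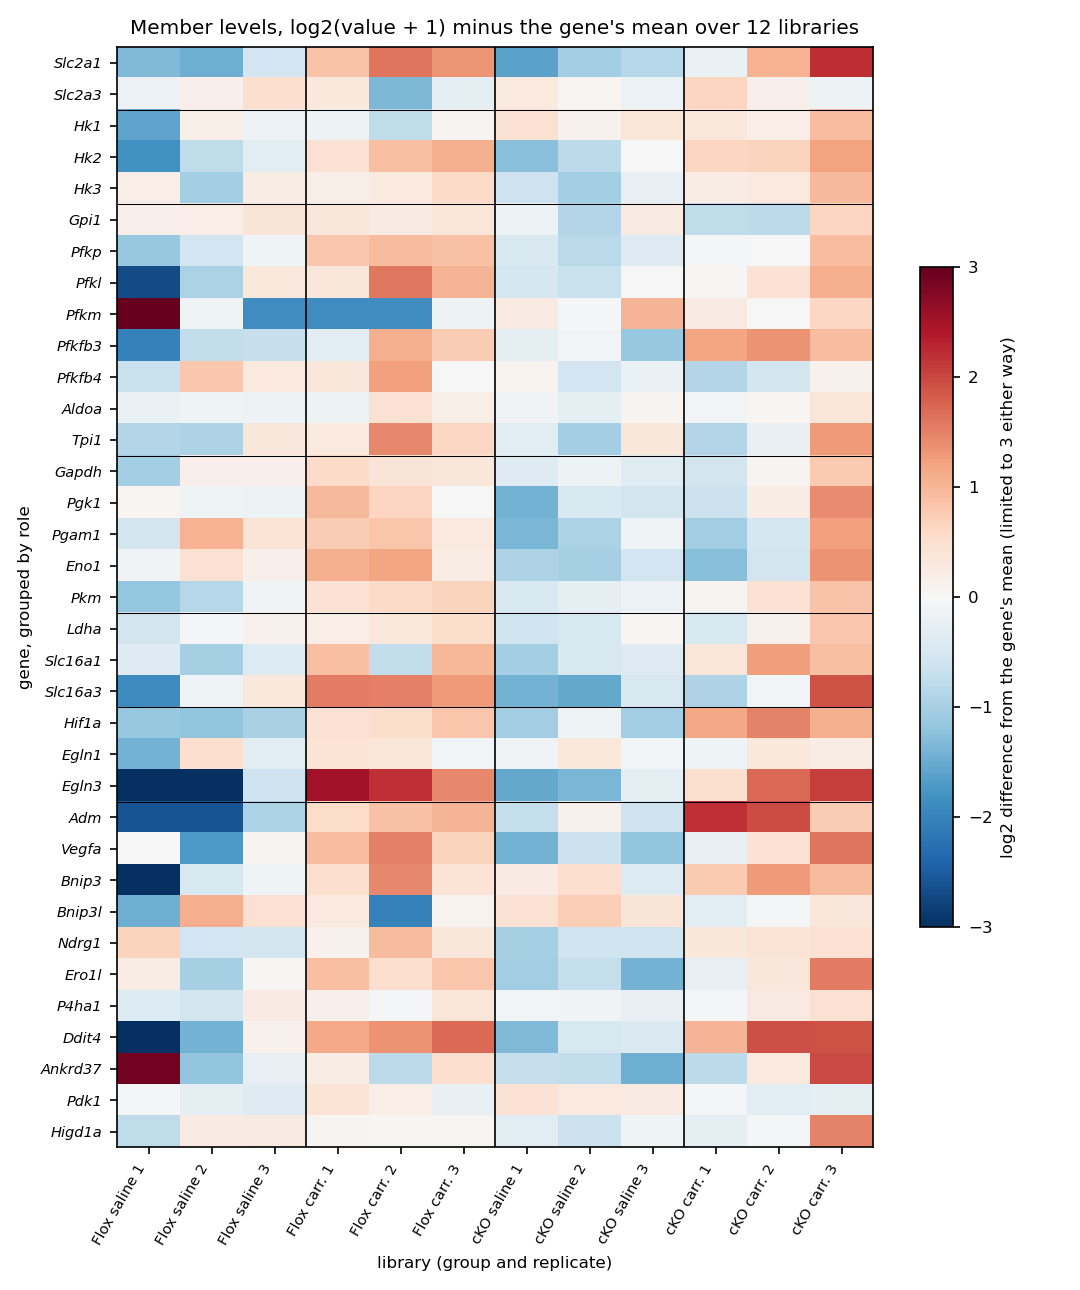
Level of the 35 members in the 12 libraries, as the difference of log2(value + 1) from each gene's mean over all libraries, limited to 3 either way. Red is above the gene's mean and blue below, and columns are libraries in their groups. The last column, cKO carrageenan replicate 3, is the highest of its group for 26 of 35 members.

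Where a family holds several members, the share of the family's reads taken by 1 of them was set beside the levels. These 7 shares were picked after the values were seen and carry no test. In Flox, Slc2a1 took 67.8 ± 4.62% of the Slc2a1 and Slc2a3 reads after saline and 93.5 ± 4.71% after carrageenan (SD, n = 3). In cKO it took 68.4 ± 9.92% and 87.0 ± 11.6%, and the cKO ranges overlapped. The share of Hk2 among hexokinase reads went from 47.0 to 70.5% in Flox and from 51.6 to 65.6% in cKO. Pfkfb3 went from 83.4 to 91.9% and from 90.6 to 97.2% of Pfkfb3 and Pfkfb4. Egln3 went from 5.95 to 51.8% and from 11.2 to 42.2% of Egln1 and Egln3. That pair held only 2, 19 and 28 reads in the Flox saline libraries. For the Hk2, Pfkfb3 and Egln3 families every carrageenan library lay above every saline library of its genotype. So it did for Bnip3 (31.5 to 78.8% and 58.9 to 79.7% of Bnip3 and Bnip3l), where the pair held only 1 read in Flox saline replicate 1. The shares of Pfkp (65.3 and 72.6%, 70.2 and 70.1%) and of Slc16a3 (76.2 and 87.0%, 71.4 and 68.5%) overlapped between treatments in both genotypes.

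**Figure D4:**
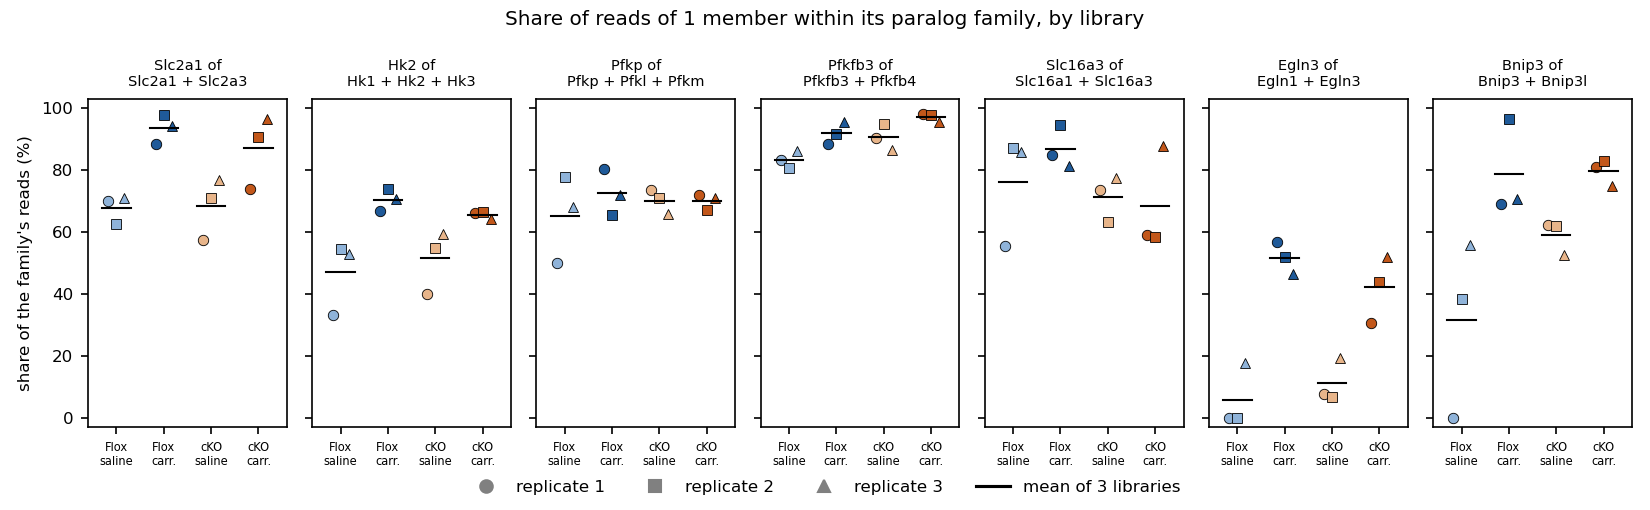
Share of 1 member in the summed reads of its family, in percent on the vertical axis, for 7 families. Points are libraries (shape gives the replicate) and lines are means of 3. The Egln3 panel shows all 6 carrageenan libraries above all 6 saline libraries, with 2, 19 and 28 reads behind the Flox saline points.

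Genes around these pathways were counted from lists that do not overlap the members. Of 15 tested among other hypoxia-inducible genes, 3 rose and 2 fell averaged over genotypes. Nos2, inducible nitric oxide synthase, went from means of 0.357 and 0.477 to 33.8 and 27.0 in Flox and cKO. Bhlhe40, a transcriptional repressor, rose by 1.10 ± 0.19 SE, and Tfrc, the transferrin receptor, fell by 1.35 ± 0.30 SE. Mxi1, a MYC antagonist, also rose, and Zfp395 also fell. Of 7 tested HIF pathway genes none passed, and the log2 differences with the smallest p were 0.83 for Vhl, 0.74 for Egln2 and 0.54 for Cul2. Of 14 other glycolysis isoforms and glycogen genes tested, Slc2a6, a further glucose transporter family member, rose by 1.47 ± 0.35 SE, while Pygl (1.76) and Ldhb (1.07) did not pass. In the pentose phosphate pathway (9 tested), Taldo1, transaldolase, rose by 0.84 ± 0.19 SE and H6pd, the hexose phosphate dehydrogenase of the endoplasmic reticulum, fell by 1.74 ± 0.42 SE, and Rpia (-0.81) did not pass. Of 18 genes tested of pyruvate entry and the citrate cycle, Idh2, mitochondrial isocitrate dehydrogenase, fell by 1.96 ± 0.28 SE, and the other 17, Sdha (-0.38) and Fh1 (-0.58) among them, did not pass. Idh2 went from means of 90.9 to 15.7 in Flox (log2 difference -2.64) and from 106 to 43.5 in cKO (-1.27, which did not pass).

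No member was called different between the genotypes. After saline 0 of 31 members tested passed, against 0% of 9371 genes. At an unadjusted p under 0.05 there were 508 genes and 1 member, edgeR called 0 genes and DESeq2 22. The member was Eno1 (enolase), lower in cKO by a log2 difference of -0.97 (95% interval -1.61 to -0.34, adjusted p = 0.683). Eno1 was at 105, 156 and 126 in Flox saline and at 59.1, 56.5 and 75.2 in cKO saline, and Eno1 and Pgk1 were the tested members with every cKO library below every Flox library (2 of 31, against 5.23% of all genes). Pdk1 showed the reverse (1 of 31, against 10.4%), so that both counts were near or below the shares of all genes. Egln3, Adm, Ankrd37 and Pfkm were too low to be tested after saline.

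After carrageenan 0 of 34 members passed, against 0% of 9151 genes. EdgeR called 0 genes and DESeq2 7, but DESeq2 gave no adjusted p for 6742 of the 9151. By limma, 897 genes and 1 member had an unadjusted p under 0.05. The member was Hif1a, 0.65 higher in cKO on the log2 scale (95% interval 0.15 to 1.15, adjusted p = 0.497). Averaged over both treatments 0 of 34 members passed, against 0.00976% of 10243 genes (1531 genes at an unadjusted p under 0.05). EdgeR called 22 genes higher and 43 lower and DESeq2 92 and 162, with 0 members among either. The 5 members at an unadjusted p under 0.05 were Hif1a (0.52), Eno1 (-0.97), Hk1 (0.82), Adm (1.25) and Pfkfb3 (0.66), with adjusted p of 0.253 to 0.324. The median log2 difference of the members was -0.00 after saline and -0.09 after carrageenan, and of all genes 0.25 and 0.09.

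The result after carrageenan depended on 1 library. Without cKO carrageenan replicate 3, 4 members were lower in cKO (11.8%, against 3.29% of 8908 genes), with 1848 genes and 13 members at an unadjusted p under 0.05. The 4 were Slc16a3 (log2 difference -1.94, adjusted p = 0.0102), Gpi1 (-1.09, adjusted p = 0.0219), Pfkp (-0.90, adjusted p = 0.0299) and Eno1 (-1.72, adjusted p = 0.0332), and Hif1a was 0.74 higher (adjusted p = 0.0702). Averaged over treatments, Eno1 then passed as well (-1.34, adjusted p = 0.0161). In this fit cKO carrageenan is represented by replicates 1 and 2, with 2271231 and 2627107 reads against 508407 in replicate 3.

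**Figure D5:**
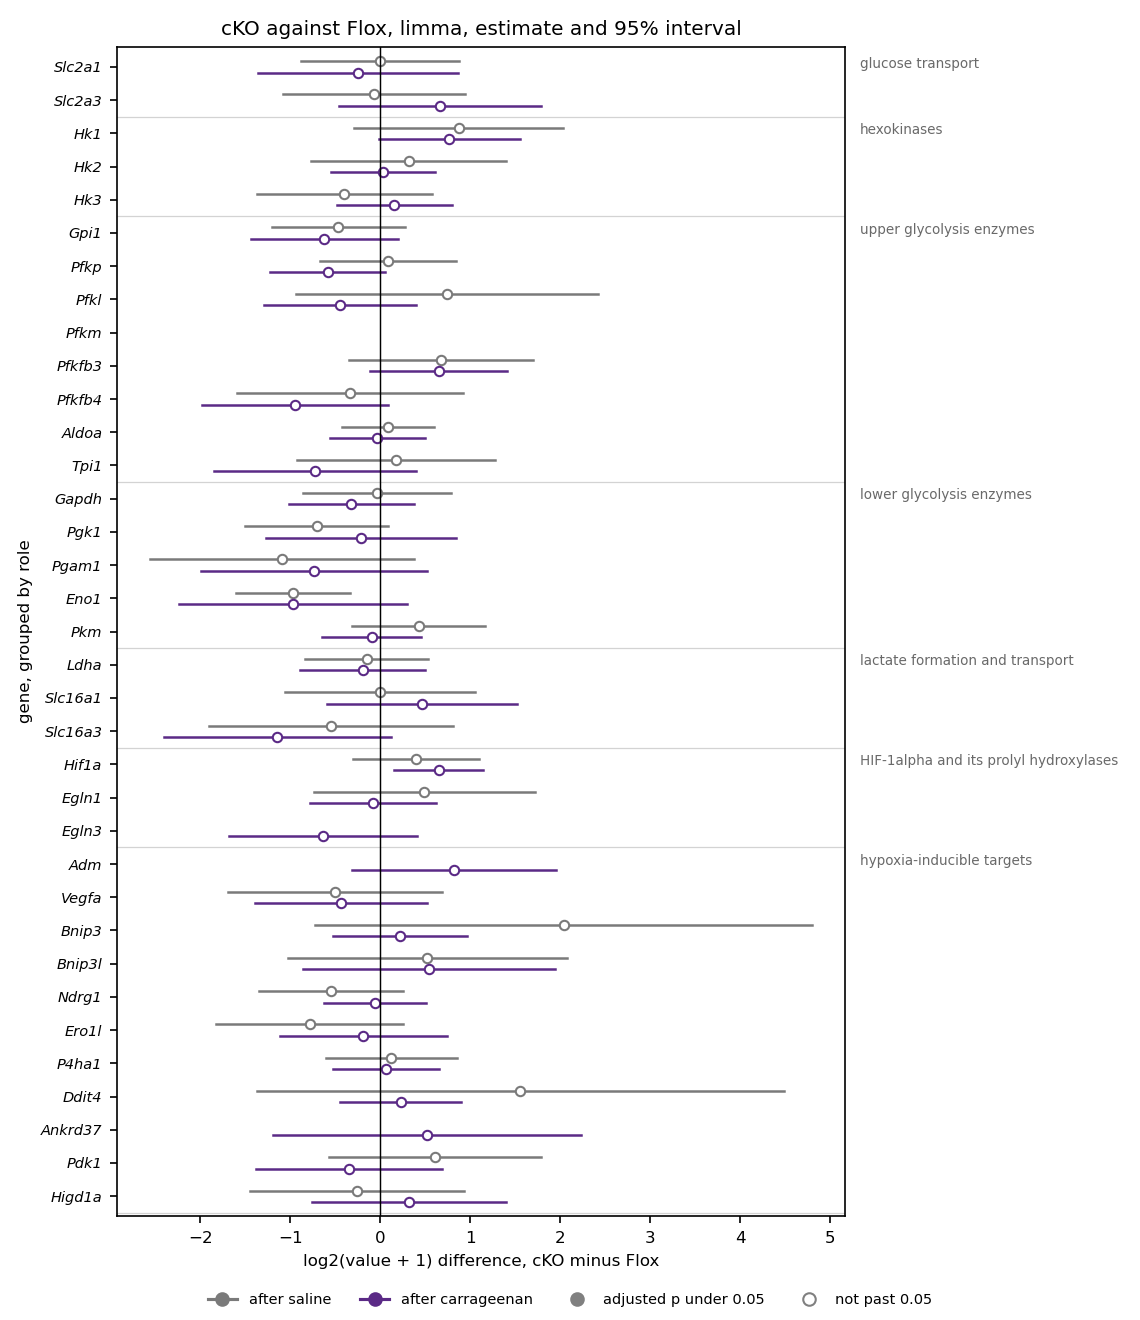
Difference of cKO from Flox for each member after saline (grey) and after carrageenan (purple), on the log2 scale of value plus 1, with 95% intervals from limma. No point is filled, since no member passed an adjusted p of 0.05 in either treatment. Eno1 lies at -0.97 in both.

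In the authors' deposited table for carrageenan, 29 members had an adjusted p and 0 were past 0.05, the lowest being 0.348 for Hif1a with a log2 fold change of 0.603. In the authors' deposited table for saline, 31 members had one and 0 were past 0.05, the lowest being 0.175 for Eno1 with a log2 fold change of -0.923. Over all genes, the authors' deposited tables list 20 past 0.05 after saline and 5 after carrageenan.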

How the data were processed

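RNA from 12 pools of sorted cells was made into 3′ mRNA libraries with the Lexogen LUTHOR kit, which adds unique molecular identifiers, and sequenced on an Illumina NovaSeq with paired ends, per the labels' protocols. Cutadapt, STAR and GRCm38 are named in the submitters' processing notes, with versions, read counter, annotation and use of strand not given in the sources used here. By the values, the authors deposited a signal in normalized counts, reads per gene divided by 1 size factor per library, in separate tables for saline and carrageenan. Whole reads were recovered from it (100% of values whole within 0.001). The authors' deposited comparison tables give, per the file headers, a log2 fold change of cKO over Flox and its standard error. They also give a test statistic, a score per gene deposited by the authors, and the authors' deposited p-value and adjusted p-value.

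The 12 libraries were put on 1 scale by median of ratios over 6501 genes above 0 in all of them, for levels and for carrageenan against saline. Genotypes were compared on the deposited scale. The 121 entries that are not genes (0.170 to 2.23% of reads) were left out. Limma with a mean trend was fitted on log2(value + 1) of genes that reached 5 in at least 3 libraries. Tests were 2-sided, with Benjamini-Hochberg adjustment over all genes. A check on simulated counts used the same dispersion for every gene and no outlying library. It does not cover pools as uneven as these. Fold changes are on the log2(value + 1) scale: the added 1 shrinks changes between low values, while 0 reads in a shallow library can enlarge them. All 12 libraries entered each fit, except that cKO was compared with Flox within a treatment on its 6 libraries. EdgeR (quasi-likelihood, TMM) and DESeq2 on the recovered reads, other pseudocounts, filters and scales, a replicate block and leaving out each library were the alternatives. Versions were limma 3.58.1, DESeq2 1.42.0 and edgeR 4.0.16 under R 4.3.3.

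The 35 members and all lists were chosen with earlier results of these data known. Every library's value is given for members past the threshold in any comparison, the others by ranges, counts or differences, and from each neighbouring list up to 3 genes with the smallest p are named, beside Fabp5, Lyz2 and genes that a count of 5 or fewer holds. In cKO, same-numbered saline and carrageenan libraries deviated together over 5597 genes (r = 0.247, 0.525 and 0.612). So did cKO saline replicate 2 and carrageenan replicate 1 (r = 0.336). In Flox the same-numbered libraries did not (r = 0.025, -0.019 and 0.086). These values do not settle whether same-numbered pools share mice.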

Additional observations from a re-analysis of the deposited data

How the results depend on the processing

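Counts of members that rose are followed in brackets by counts of all genes that rose in the same runs. Within cKO the count was 3 (215 of 10240). It became 6 with a pseudocount of 5 (279 of 10240) and 1 with no filter on low values (115 of 22055). It was 13 with edgeR (469 of 10240) and 13 with DESeq2 on whole reads (564 of 10240). When a library was left out it was 1 to 8 (73 to 375). Within Flox it was 9 (453) and 4 to 13 (216 to 747) when a library was left out. Averaged over genotypes it was 15 (696) and 11 to 17 (503 to 867). For cKO against Flox the count of members called was 0. When a library was left out it was 0 to 4 after carrageenan and 0 to 1 averaged over treatments. Both maxima were without cKO carrageenan replicate 3, where 127 and 76 of all genes were called higher and 293 and 154 lower. The cause of these changes was not tested. With the replicate block, 11 members rose in Flox (458 of all genes), 4 in cKO (211) and 17 on average (731). The average then added Hk3 and Pgk1, and 0 members differed in response. In cKO the block changed 1 call, that of Hk2. In Flox the block added Pfkl and Slc16a3. No member's called change reversed under any alternative run. Over all genes, edgeR called 469 higher and 264 lower in cKO against 215 and 56 by limma. The deposited scale moved the median of all genes in cKO from -0.07 to -0.18. For the family shares, 2 omissions were chosen after seeing the data. Without Flox saline replicate 1 the mean difference between treatments went from 3.65 to -0.19 percentage points for Pfkp and from 3.88 to -1.29 for Slc16a3, and without cKO carrageenan replicate 3 to -0.95 for Slc16a3. In the shallowest library 1 read is worth 5.51 normalized counts, so that changes of Egln3, Adm and other low members are poorly resolved in Flox saline.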
